A study of Mus musculus with 72 samples.

Results

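Transcript levels in the tibialis anterior (TA), a fast muscle at the front of the lower leg, were compared between mice lacking Bmal1 in muscle fibres (mKO) and their Cre-negative littermates (Ctrl) at Zeitgeber time 4 (ZT4), which is 4 h after lights on. The comparison took every array labelled TA and ZT4, 3 mKO and 3 Ctrl, each from a different animal and named A to C within its genotype. These are 6 of the 72 arrays of the series, which also holds the soleus (SOL), a slow postural muscle, of the same animals and 5 other times of day. On them 20239 named genes were tested, each through 1 probe set.

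The mKO animals carried floxed Bmal1 alleles and a Cre recombinase driven by the Mlc1f promoter, a fast myosin light chain promoter active in skeletal muscle fibres. Ctrl animals were littermates with no Cre, and the labels do not say whether they carried floxed alleles. Effects of Cre itself and of the loss of Bmal1 therefore cannot be told apart. Both groups were C57BL/6 males aged 5 months, kept in a light phase from ZT0 to ZT12 followed by darkness, with free access to chow. Endothelial, immune and connective tissue cells of the muscle are not known targets of this promoter and are part of the RNA measured.

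Bmal1, whose gene symbol is Arntl, pairs with Clock or Npas2 to switch on genes that carry E-box motifs. Among these are the Per and Cry genes, whose proteins block the pair, and the REV-ERB genes Nr1d1 and Nr1d2, whose proteins repress Arntl in opposition to the ROR receptors. The pair also drives transcription factors such as Dbp, which pass the daily cycle on to other genes through D-box motifs.

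All values are log2 signals, so a difference of 1 is a 2-fold change. Medians of the 6 arrays lay between 6.70 and 6.73, and pairs of them correlated with r between 0.989 and 0.993 across genes. The fast fibre genes Myh4, Tnnt3 and Pvalb and the muscle genes Acta1 and Ckm read between 13.5 and 14.2 on all 6 arrays, among the brightest of the table. Ctrl replicate C stood apart in its liver transcripts. All 10 liver markers measured were highest there, by a median of 2.20 over the median of the other 5 arrays, and albumin (Alb) read 11.29 against 5.69 to 8.28. The mean of the liver markers was 8.14 on this array and 5.57 to 5.99 on the others. In the SOL of the same animal it was 7.74, against 5.60 to 6.53 on the other 5 SOL arrays of ZT4. The total and the list counts that change without this array are therefore given both ways.

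At ZT4, 339 genes differed between mKO and Ctrl TA at an adjusted p below 0.05 in limma's moderated test, 1.67% of those tested. Of these, 130 genes (0.642%) were higher in mKO and 209 (1.03%) were lower. These shares are the background for the list counts below. The median size was 0.57 for the higher genes and -0.55 for the lower ones, and the median of all 20239 genes was 0.01. More than 2-fold differences were found for 21 higher and 30 lower genes. The 3 mKO and 3 Ctrl values did not overlap for 338 of the 339 genes. The genes were selected on these same arrays, so this separation adds no support to the calls. Genes that did not pass, such as Cry2 and Nampt, separated as well, and the share of all genes that separated is not given here. Absence of overlap is therefore a description, also where it is stated for single genes or marker means below. Among the 10 largest decreases were the lipase gene Ces1d, Chac1, the matrix gene Aebp1 and the clock genes Bhlhe40, Dbp, Nr1d1 and Nr1d2, and the 3 largest increases were those of Prss55, Cdkn1a and Actc1. Without Ctrl replicate C, 216 genes passed, 78 higher and 138 lower, and all 339 kept their sign. Without Ctrl replicate B, 224 passed.

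**Figure D1:**
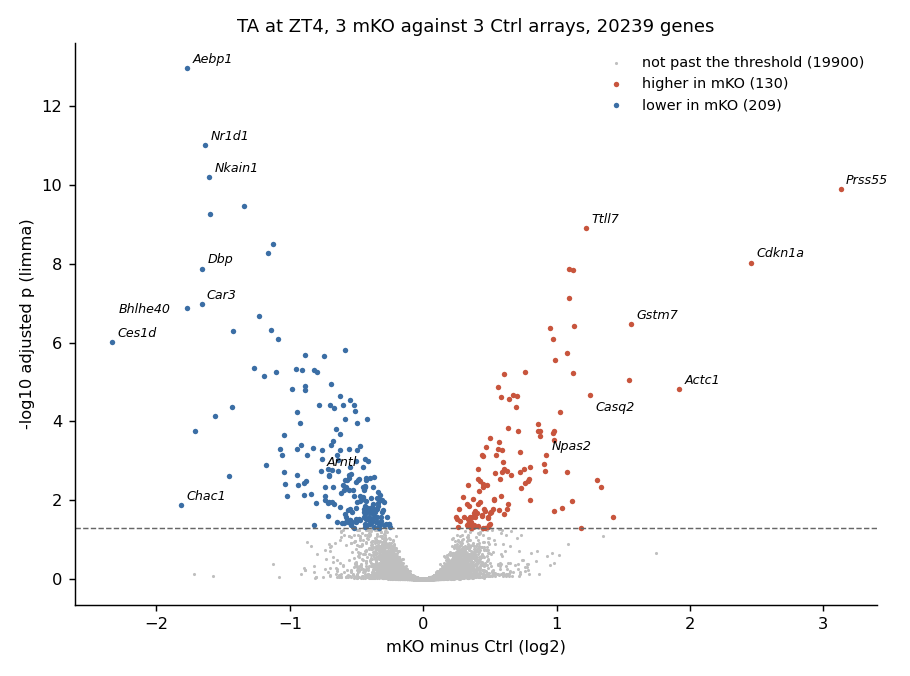
Difference between mKO and Ctrl TA at ZT4 (x axis, log2) against −log10 of limma's adjusted p (y axis), with 1 point per gene, for 20239 genes and 3 arrays per genotype. Red points are the 130 genes that were higher in mKO, blue points the 209 that were lower, and the dashed line is the threshold of 0.05. The lower genes reach the smallest p, with Aebp1 at the top.

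Arntl itself read 9.10, 8.89 and 8.88 in the Ctrl arrays and 8.25, 8.20 and 8.11 in the mKO arrays. The groups did not overlap, and the difference was -0.77 ± 0.14 (SE), a 1.70-fold lower signal in mKO (adjusted p = 0.00182). The position of the probes with respect to the floxed exons was not known here, so the residual signal does not measure how much of the gene was deleted. Transcript from cells in which the Cre is not active is part of it, and fewer cells with intact Bmal1 and less transcript per cell cannot be told apart.

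ZT4 lay near the daily maximum of Arntl in Ctrl TA. The Ctrl mean was 9.22 ± 0.13 (SD, n = 3) at ZT0, 8.96 ± 0.12 at ZT4 and 7.01 ± 0.17 at ZT12, whereas the mKO mean ran from 7.71 ± 0.27 at ZT12 to 8.43 ± 0.06 at ZT20, with 8.33 ± 0.22 at ZT0. The difference was therefore -0.90 at ZT0 and -0.77 at ZT4 but 0.70 at ZT12, each with an SE of 0.14. The mKO arrays were lower at ZT4 and higher at ZT12. The test of the ZT4 difference against the mean of the other 5 times gave -0.83 for Arntl and missed the threshold (adjusted p = 0.127).

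Genes of the clock were among those with the clearest differences, and most fell. Of 14 core clock genes measured, 8 were lower and 3 higher in mKO at ZT4, with a median of -0.47 over the list against 0.01 over all genes. Over all genes tested, 1.03% were lower and 0.642% higher. Of 13 output genes, 6 were lower and 1 higher, with a median of -0.40. Without Ctrl replicate C, 6 core genes were lower and 1 higher, and the output counts were again 6 and 1. Both lists were written with earlier results of these arrays known, so their counts are descriptions.

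Motifs of the clock were looked up in RefSeq promoters (GRCm38.p6), from 250 bases before to 50 bases after each annotated start, on both strands. They were the E-box CACGTG, its variant CACGTT, the D-box as TTATGTAA or TTACGTAA, and the ROR element as TAGGTCA or TGGGTCA. Of the 18 clock and output genes that passed the threshold, 15 had a promoter in the table, and 8 of these held a motif. An E-box was found in 4 of them, the variant in 2, a D-box in 2 and a ROR element in 2. Windows around the motifs of 7 of these genes follow, shown because these motifs are the known contacts of the factors described above. They are read 5′ to 3′ on the gene's strand, end no later than the annotated start, and have the motif in capitals.
Per1: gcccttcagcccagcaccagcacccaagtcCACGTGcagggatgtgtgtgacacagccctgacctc
Tef: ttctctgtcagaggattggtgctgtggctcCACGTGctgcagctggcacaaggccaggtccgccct
Cry1: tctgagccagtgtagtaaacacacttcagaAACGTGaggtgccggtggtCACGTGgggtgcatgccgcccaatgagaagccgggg
Nr1d1: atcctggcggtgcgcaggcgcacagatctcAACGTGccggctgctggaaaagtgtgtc
Coq10b: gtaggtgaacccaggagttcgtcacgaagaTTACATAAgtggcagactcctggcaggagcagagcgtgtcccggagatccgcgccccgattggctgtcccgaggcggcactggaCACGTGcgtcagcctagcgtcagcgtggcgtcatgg
Per3: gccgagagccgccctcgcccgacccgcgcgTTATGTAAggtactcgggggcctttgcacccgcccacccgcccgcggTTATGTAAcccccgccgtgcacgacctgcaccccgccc
Nfil3: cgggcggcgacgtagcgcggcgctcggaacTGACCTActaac

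The windows of Per1 (chr11:69098753-69098818), Tef (chr15:81802516-81802581) and Coq10b (chr1:55052578-55052727) lie on the plus strand. Those of Cry1 (chr10:85185079-85185163), Nr1d1 (chr11:98775378-98775435), Per3 (chr4:151044786-151044900) and Nfil3 (chr13:52981040-52981081) lie on the minus strand. AACGTG is the variant E-box, TTACATAA the D-box and TGACCTA the ROR element, each as it reads on the opposite strand. The same search over the 15651 tested genes with a promoter found an E-box in 9.47%, the variant in 5.59%, a D-box in 1.12% and a ROR element in 6.68%. Among the 165 lower genes with a promoter the shares were 14.5%, 7.27%, 4.24% and 6.06%. Among the 100 higher genes they were 8% for the E-box, 4% for the variant and 6% for the ROR element, with a D-box in 0 genes. A match to these letters is not a measured binding site. Of the genes shown, Per1, Tef, Nr1d1, Coq10b and Per3 were lower in mKO, and Cry1 and Nfil3 were higher. Motifs were also found in clock and output genes that did not pass. Ciart held 3 E-boxes, Bhlhe41, Bcl6 and Lonrf3 also held an E-box, Cry2 the variant and Leo1 a ROR element. The motifs therefore do not set the genes that passed apart.

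Both REV-ERB genes were lower in mKO. Nr1d1, shown above with the variant E-box just before its start, read 11.83, 11.82 and 11.60 in Ctrl and 10.11, 10.13 and 10.09 in mKO. Its difference of -1.64 ± 0.10 was a 3.11-fold lower signal (adjusted p = 9.98e-12). Nr1d2, its paralogue, read 11.26, 11.08 and 11.00 in Ctrl and 9.63, 9.60 and 9.30 in mKO, a difference of -1.60 ± 0.12 (adjusted p = 5.65e-10). All mKO values of both genes lay more than 1 log2 unit below all Ctrl values. Rora, which encodes the receptor that competes with them, was lower by a smaller amount (-0.38 ± 0.09, adjusted p = 0.0172).

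The 3 Per genes and Bhlhe40, which encode repressors, were lower as well. Bhlhe40 (Dec1), a repressor acting on E-boxes, read 9.59, 9.60 and 9.44 in Ctrl and 7.47, 8.09 and 7.76 in mKO, a difference of -1.77 ± 0.18 (adjusted p = 1.32e-07). Per3 read 7.92, 7.74 and 7.69 in Ctrl and 6.61, 6.62 and 6.69 in mKO, a difference of -1.14 ± 0.12 (adjusted p = 4.72e-07). The other Per genes, which encode the main partners of the Cry proteins, differed less, Per1 by -0.61 ± 0.16 and Per2 by -0.35 ± 0.08. Bhlhe41 was at -0.31 (adjusted p = 0.529), Cry2 at 0.15 (0.651) and Ciart at -0.55 (0.328), and none of these passed.

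The 4 clock and output genes that were higher, Npas2, Clock, Cry1 and Nfil3, are each known as targets of REV-ERB repression. Npas2, the partner of Bmal1 that can stand in for Clock, read 7.59, 7.80 and 7.69 in Ctrl and 8.76, 8.55 and 8.53 in mKO, a difference of 0.92 ± 0.16 (adjusted p = 0.000712). Clock was higher by 0.51 ± 0.12 and Cry1 by 0.39 ± 0.09. Nfil3, a repressor that acts on D-boxes, read 7.51, 7.40 and 7.51 in Ctrl and 8.42, 8.28 and 8.46 in mKO, a difference of 0.91 ± 0.17 (adjusted p = 0.0018). For each of these 4 genes the lowest mKO value lay above the highest Ctrl value.

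The 3 D-box activators of the output list, which Nfil3 opposes, were lower. Dbp read 9.15, 9.09 and 9.04 in Ctrl and 7.39, 7.30 and 7.60 in mKO, a difference of -1.66 ± 0.15 (adjusted p = 1.35e-08). Hlf fell by 1.23 on the log2 scale (SE 0.13) and Tef by 0.67 (SE 0.10). Among other outputs, Coq10b, a coenzyme Q binding protein gene, was at -0.98 ± 0.13, the cell cycle kinase gene Wee1 at -0.57 ± 0.14 and the deubiquitinase gene Usp2 at -0.50 ± 0.08, and all 3 passed. Tsc22d3 (-0.40), Nampt (-0.31), Bcl6 (-0.22), Lonrf3 (-0.11), Tspo2 (0.18) and Leo1 (0.21) did not. The smaller clock differences depended on single arrays: the call of Per1 was lost whichever of the 6 arrays was left out, those of Per2, Clock and Rora in 4 of 6 cases, and those of Cry1 and Wee1 in 3.

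**Figure D2:**
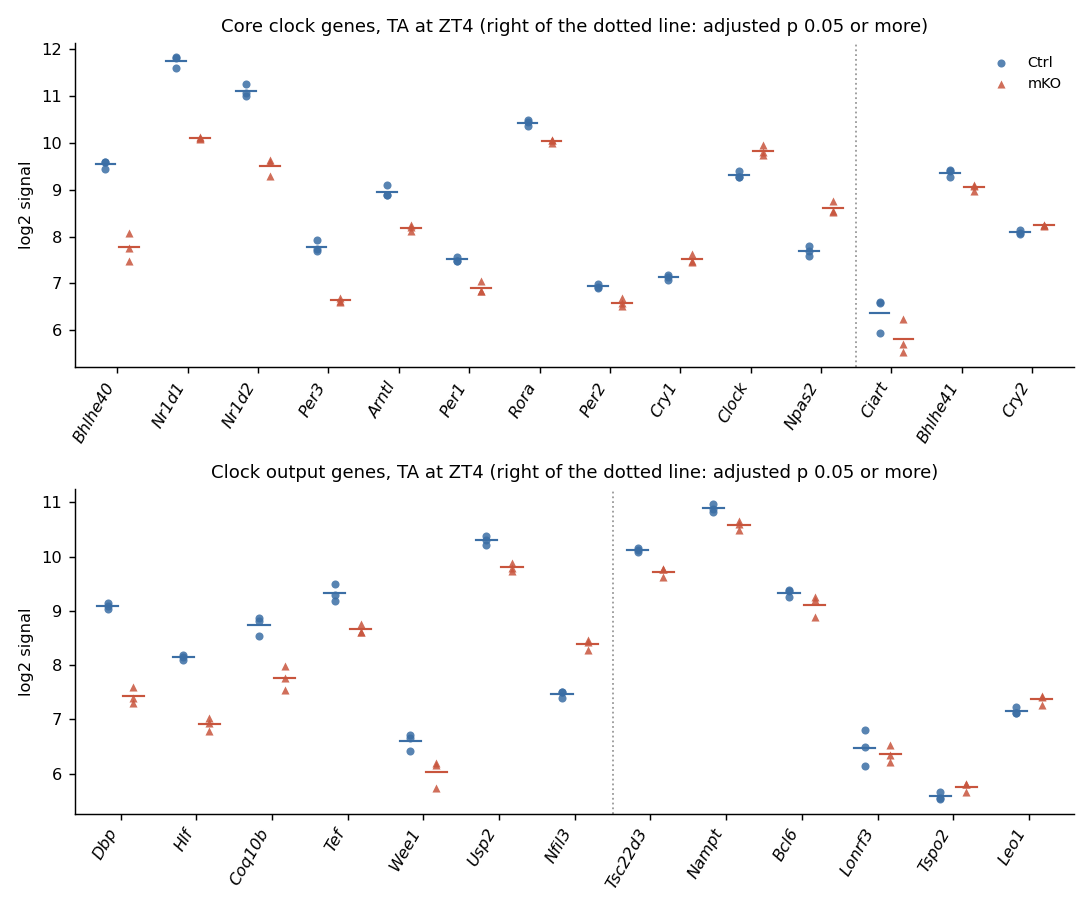
Log2 signal (y axis) of the 14 core clock genes (top) and 13 clock output genes (bottom) on each TA array at ZT4. Circles are the 3 Ctrl arrays, triangles the 3 mKO arrays and horizontal bars the group means, and genes right of the dotted line did not pass an adjusted p of 0.05. Nr1d1, Nr1d2, Bhlhe40 and Dbp show wide gaps below Ctrl, and Npas2 and Nfil3 gaps above it.

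The largest increase of all was that of Prss55, a gene of the serine protease family. It read 6.43, 6.33 and 6.09 in Ctrl and 9.46, 9.49 and 9.29 in mKO, a difference of 3.13 ± 0.22 and 8.75-fold (adjusted p = 1.30e-10). Cdkn1a, the gene of the p21 protein that halts the cell cycle, came next, with 8.09, 8.30 and 8.12 in Ctrl and 10.73, 10.53 and 10.62 in mKO, a difference of 2.46 ± 0.22 (adjusted p = 9.42e-09). Cdkn1a was the 1 of 14 measured genes of the p53 and cell cycle list that passed. In the same list Mdm2 was at -0.11 and Gadd45a at 0.06, and the list median was 0.06. The part of p53 in these differences was not tested.

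Several of the other top increases encode parts of the contractile and calcium apparatus that are better known from heart or slow fibres. Actc1, cardiac alpha-actin, read 10.58, 10.43 and 10.90 in Ctrl and 12.70, 12.64 and 12.33 in mKO, a difference of 1.92 ± 0.26 (adjusted p = 1.52e-05). Casq2, the cardiac form of the calcium store protein calsequestrin, was higher by 1.25 ± 0.17, and Myom3, a protein of the sarcomere's M-band, by 1.33 ± 0.27. Of 13 slow fibre genes, Actc1 and the stretch-responsive Ankrd2 (1.18 ± 0.32, adjusted p = 0.0492) passed, and the list median was 0.55. Csrp3 (1.75, adjusted p = 0.215) and Myoz2 (1.01, 0.248) were higher on every mKO array than on any Ctrl array but did not pass. The calls of Ankrd2 and Myom3 were lost without 1 array, for Ankrd2 with any of the 6 and for Myom3 with mKO replicate C. Without Ctrl replicate C, Actc1 was the 1 slow fibre gene that passed.

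The 6 markers of slow soleus fibres, which are myosin and troponin genes, were at 0.22 to 0.63 with no call. Their mean level was 7.09 to 7.19 on the Ctrl arrays and 7.25 to 7.77 on the mKO arrays, so the groups did not overlap on the mean. Of the 6, Myl2 alone separated the groups, with 6.39, 6.28 and 6.27 in Ctrl and 7.10, 6.61 and 7.10 in mKO. The slow myosin gene Myh7 read 7.02, 7.26 and 6.87 in Ctrl and 7.79, 7.15 and 8.10 in mKO. The part of any slow fibre tissue in the differences of Actc1, Casq2, Myom3 and Ankrd2 was not tested. Means of the satellite cell markers did not overlap either, at 7.22 to 7.26 in Ctrl and 7.30 to 7.38 in mKO, with 0 calls.

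The remaining increases among the 10 largest came from varied families. Gstm7, a glutathione transferase gene, read 6.81 on all 3 Ctrl arrays and 8.37, 8.32 and 8.41 in mKO (1.56 ± 0.17, adjusted p = 3.42e-07). Rgs2, a brake on G protein signalling, was higher by 1.55 ± 0.20, and Ttll7, an enzyme that adds glutamate chains to tubulin, by 1.22 ± 0.10. Atf3, a stress-induced transcription factor, ranged from 6.77 to 7.93 in Ctrl and from 8.63 to 8.85 in mKO (1.43 ± 0.35, adjusted p = 0.0271), and its call was lost in 5 of the 6 cases in which 1 array was left out. Ighm, the immunoglobulin mu chain gene, was higher by 1.30 ± 0.26. The 8 measured lymphocyte and granulocyte markers gave 0 calls, but 7 of them were above 0. Their mean level was 5.23 to 5.32 in Ctrl and 5.38 to 5.45 in mKO, so the groups did not overlap on the mean. The highest marker was at 0.39, and the B cell markers Ms4a1 and Cd79a were at 0.01 and 0.09. The part of blood cells in the Ighm difference was not tested.

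**Figure D3:**
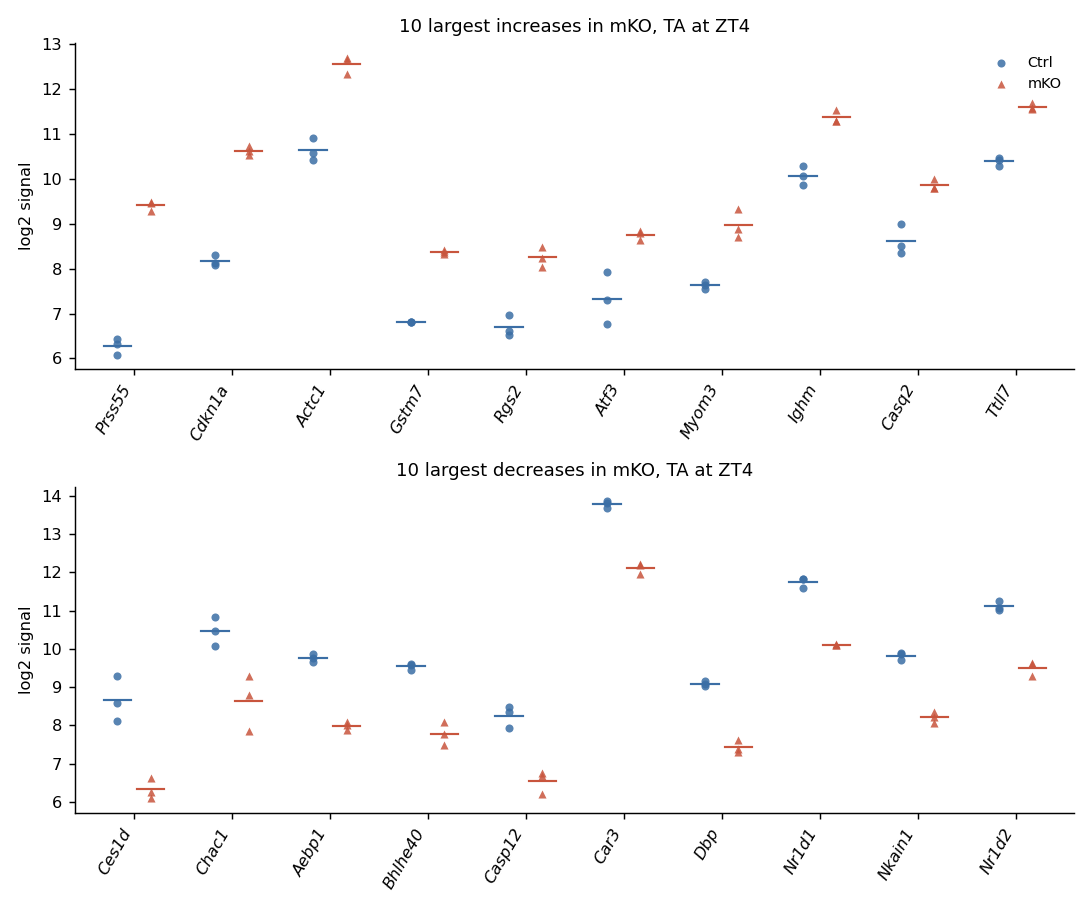
Log2 signal (y axis) on each TA array at ZT4 of the 10 genes with the largest increases (top) and the 10 with the largest decreases (bottom) in mKO. Circles are the 3 Ctrl arrays, triangles the 3 mKO arrays and bars the group means. No gene shown has overlapping groups, and Ces1d, Chac1, Atf3 and Casq2 show the widest spread within a group.

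The largest decrease was that of Ces1d, a carboxylesterase that splits triglycerides. It read 9.29, 8.10 and 8.59 in Ctrl and 6.09, 6.61 and 6.27 in mKO, a difference of -2.34 ± 0.26 and 5.05-fold (adjusted p = 9.99e-07). Liver also makes this enzyme. Without Ctrl replicate C, which read 8.59, the difference was -2.37. The median of the 22 genes of the triglyceride list was -0.07. Of them 3 were lower and 0 higher, against 1.03% and 0.642% of all genes tested. The others were Dgat2, which completes triglyceride synthesis (-0.94 ± 0.19), and Gpam, which starts it (-0.36 ± 0.09), whose call was lost in 4 of 6 cases without 1 array. Adipocyte markers averaged 6.27 to 6.40 in Ctrl and 6.16 to 6.22 in mKO, so the groups did not overlap on the mean, and 5 of 7 were below 0. Among these 7 markers only Adig passed (-0.48 ± 0.12), and it lost its call in 5 of 6 cases without 1 array, Ctrl replicate C among them, while Adipoq was at -0.19 and Plin1 at -0.14. The part of fat cells in the triglyceride genes was not tested.

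Aebp1, a gene of a secreted matrix protein, had the smallest p of the comparison. It read 9.75, 9.87 and 9.66 in Ctrl and 8.08, 8.01 and 7.88 in mKO, a difference of -1.77 ± 0.09 (adjusted p = 1.12e-13). The 11 fibroblast and tendon markers gave 0 calls, with a median of -0.26, and 9 of them were below 0. Their mean level was 9.01 to 9.29 in Ctrl and 8.81 to 9.03 in mKO, so the groups overlapped narrowly on the mean. The part of connective tissue cells in the Aebp1 difference was not tested. Car3, the carbonic anhydrase typical of slow fibres and fat, was among the brightest genes of Ctrl TA at 13.81, 13.68 and 13.85, and read 12.18, 11.95 and 12.22 in mKO (-1.66 ± 0.17, adjusted p = 1.07e-07). The median of 13 carbonic anhydrase and ion transport genes was -0.14. Of them 3 were lower and 0 higher, against 1.03% and 0.642% of all genes tested. Besides Car3 these were Nkain1, which encodes a partner of the sodium pump (-1.60 ± 0.11), and Slc4a4, a bicarbonate transporter (-0.76 ± 0.13). As given above, the mean of the slow soleus fibre markers was higher on each mKO array than on any Ctrl array. That of the adipocyte markers was lower on each mKO array. The part of slow fibre tissue and of fat cells in the Car3 difference was not tested.

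Casp12 and Chac1 completed the 10 largest decreases. Casp12, a caspase of the endoplasmic reticulum, read 7.92, 8.48 and 8.36 in Ctrl and 6.67, 6.75 and 6.20 in mKO (-1.71 ± 0.27, adjusted p = 0.000177). Chac1, an enzyme that degrades glutathione, ranged from 10.06 to 10.82 in Ctrl and from 7.85 to 9.28 in mKO (-1.81 ± 0.41, adjusted p = 0.0132). The Chac1 call was lost without mKO replicate C, Ctrl replicate A or Ctrl replicate C.

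Lists of fuel use held few calls, where 1.67% of all genes tested passed. In lists this short, so few calls are not read as a change of fuel use. Of 19 glucose uptake and glycogen genes 2 were lower and 0 higher, with a median of -0.07. Slc2a3, the glucose transporter GLUT3, read 7.68, 7.28 and 7.31 in Ctrl and 6.23, 6.06 and 6.18 in mKO (-1.27 ± 0.16, adjusted p = 4.48e-06). Tbc1d1, which restrains the movement of glucose transporters to the membrane, was lower by a smaller amount (-0.59 ± 0.14), and lost its call in 4 of 6 cases without 1 array, Ctrl replicate C among them, which leaves 1 gene of this list. The main muscle transporter gene Slc2a4 was at -0.09 and Hk2 at -0.31, and neither passed. The lactate transporter gene Slc16a1 was lower (-0.57 ± 0.11) as 1 of 14 glycolysis and lactate genes.

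In the fatty acid list 1 of 21 genes passed. Ucp3, the uncoupling protein of muscle mitochondria, read 10.39, 10.71 and 10.22 in Ctrl and 10.32, 9.48 and 9.35 in mKO (-0.72 ± 0.17, adjusted p = 0.0243). It is the gene past the threshold whose groups overlapped, with mKO replicate A above Ctrl replicate C, and its call was lost in 4 of 6 cases without 1 array. None of 12 pyruvate dehydrogenase genes passed, with a list median of -0.01 and 2 genes at an unadjusted p under 0.05. None of 23 citrate cycle and respiratory chain genes passed either, with a median of 0.08 and 3 such genes, in limma's test. Of these 23 genes 21 were above 0, against 10903 of all 20239 genes. Gpt, alanine aminotransferase, was higher as 1 of 15 amino acid genes (0.68 ± 0.09, adjusted p = 2.15e-05).

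Among 17 calcium handling genes 3 were higher and 0 lower, with a median of 0.06. Over all genes tested, 0.642% were higher and 1.03% lower. Mrln, whose product myoregulin restrains the calcium pump, read 10.13, 9.92 and 10.07 in Ctrl and 11.16, 11.07 and 11.17 in mKO (1.10 ± 0.10, adjusted p = 1.33e-08). Casq2 was described above, and Cacna1s, the voltage sensor of the transverse tubule, was higher by 0.30 ± 0.06. The Cacna1s call was lost without Ctrl replicate C (adjusted p = 0.0663), which leaves 2 genes of this list, and without mKO replicate C. Of 16 neuromuscular junction genes 2 were higher and 0 lower. They were Chrnb1, the beta subunit of the acetylcholine receptor (1.08 ± 0.13, adjusted p = 1.84e-06), and Lrp4, the receptor for agrin (0.41 ± 0.08).

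Of 15 fast fibre genes only the kinase gene Mylk4 passed, at 12.89, 12.86 and 12.83 in Ctrl against 11.62, 11.72 and 11.75 in mKO (-1.16 ± 0.10, adjusted p = 5.35e-09). The fast myosin genes Myh4 (-0.01), Myh1 (-0.04) and Myh2 (0.09) did not pass. Tead4, a partner of YAP, was the 1 of 16 muscle transcription factors that passed (0.88 ± 0.14).

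Calls in the growth and stress lists follow, where 1.67% of all genes tested passed. These lists too were written with earlier results known, so their counts are descriptions. Akt1 (-0.54 ± 0.10) and Igfbp5 (-0.73 ± 0.16), a binding protein of insulin-like growth factors, were lower among 18 insulin and IGF genes. Map1lc3a, a protein of autophagosomes, was the 1 of 16 atrophy and autophagy genes that passed (-0.40 ± 0.08), and Fbxo32 (-0.24) and Trim63 (-0.19) did not. Of these 16 genes 15 were below 0, against 9336 of all 20239 genes, with a list median of -0.11. Of 17 glucocorticoid responsive genes Sgk1 (-0.55 ± 0.13), Errfi1 (-0.51 ± 0.12) and Per1 were lower and Cdkn1a was higher, with a list median of -0.11. Cirbp, the cold-inducible RNA-binding protein, was higher as 1 of 13 heat shock and cold genes (0.37 ± 0.10, adjusted p = 0.0482), a call lost whichever array was left out. Atf3 was the 1 of 16 immediate early genes that passed. The calls of Sgk1 and Errfi1 were each lost in 3 of 6 cases without 1 array, and that of Igfbp5 in 2. Without Ctrl replicate C, Errfi1 and Cdkn1a were the glucocorticoid responsive genes that passed, the Cirbp call was lost, and among immediate early genes Dusp1, a phosphatase gene, passed (-0.66, adjusted p = 0.0417) in place of Atf3.

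Most differences of ZT4 were present at other times of day. Of the 339 genes, 335 (98.8%) had the same sign in the mean difference of the other 5 times, against 68.5% of all genes tested, and 317 (93.5%) had it at each of those times, against 21.3% of all genes. Their median size was 0.56 at ZT4 and 0.51 over the other times. Times share no arrays, but the fit shares its estimate of the spread. Prss55 differed by 2.58 to 2.87 at the other times and by 3.13 at ZT4, Cdkn1a by 2.67 to 3.09 and 2.46, and Car3 by -1.64 to -1.83 and -1.66. None of these 3 genes passed the test of ZT4 against the other times.

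Nr1d1 alone differed at ZT4 from the mean of the other times past the threshold, 1 gene or 0.00494% of those tested, with 520 genes at an unadjusted p under 0.05. Its ZT4 difference was larger by -0.77 ± 0.11 (adjusted p = 0.0033), since it stood at -1.64 at ZT4 and between -0.48 and -1.15 at the other times. The -0.48 was that of ZT20, where all mKO animals carried numbers of another series than the Ctrl animals. Genotype and animal series cannot be told apart there, and at ZT16 the series differed in part. In Ctrl TA Nr1d1 had its highest mean at ZT4, 11.75 ± 0.13 (SD, n = 3), and its lowest at ZT20, 9.46 ± 0.06. Leaving out Ctrl replicate A or Ctrl replicate B took the adjusted p to 0.0543 and 0.0507. Dbp stood at 9.09 ± 0.05 in Ctrl at ZT4, on its rise to 10.10 ± 0.18 at ZT8, and in mKO at 7.43 ± 0.16 and 8.41 ± 0.46. Npas2 was close to its Ctrl maximum at ZT4, and its difference of 0.92 there compares with 1.51 to 2.19 from ZT8 to ZT20.

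**Figure D4:**
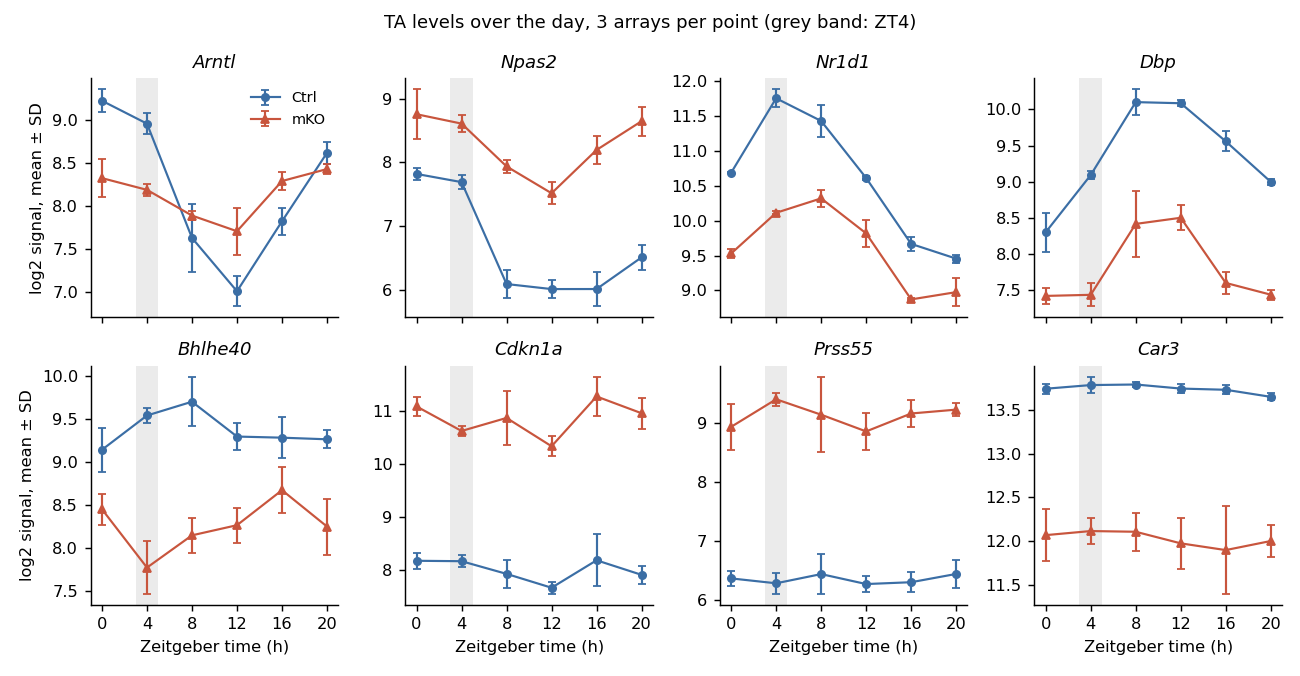
Mean log2 signal of 8 genes in TA (y axis) at 6 Zeitgeber times (x axis, h), with SD bars over 3 arrays per genotype and time. Circles and blue lines are Ctrl, triangles and red lines mKO, and the grey band marks ZT4. The Arntl lines cross between ZT4 and ZT8 and again between ZT16 and ZT20, whereas Cdkn1a, Prss55 and Car3 keep apart at all 6 times.

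In the SOL of the same 6 animals 89 genes passed the same test at ZT4, 0.44% of those tested. Both muscles shared 62 of the called genes, 18.3% of the TA genes and 69.7% of the SOL genes, and all 62 moved in the same direction. The 339 TA genes had a median size of 0.25 in SOL. Of the 18 clock and output genes called in TA, 3 (Per3, Nr1d2 and Coq10b) passed in SOL, 17 had the same sign and 17 were smaller in SOL, with a median size of 0.38 against 0.84. The 339 and the 18 genes were selected by their TA values, which by itself favours smaller sizes in SOL. Arntl was at -0.51 in SOL (adjusted p = 0.201) against -0.77 in TA, and this difference between the muscles did not pass, with a 95% interval of -0.58 to 0.06.

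The difference between the muscles was tested within animals, and 23 genes passed, 0.114% of those tested. The genotype difference was larger in size in TA for 20 of them and in SOL for 3. Car3 had a SOL mean of 13.83 in Ctrl and 13.82 in mKO, and the TA difference was larger by -1.65 (95% interval -1.95 to -1.34, adjusted p = 1.17e-07). The highest value of all arrays was 14.42, and whether so bright a signal hides a SOL difference was not tested. Prss55 rose by 0.66 in SOL, and the TA difference was larger by 2.47 (1.99 to 2.95, adjusted p = 1.93e-07). Aebp1 was at -0.42 in SOL, a gap of -1.35 (-1.70 to -0.99).

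The genes of smallest p in this test were of several kinds. Mical2, an oxidase that takes apart actin filaments, was at -1.09 in TA and 0.12 in SOL. Mettl21c, a methyltransferase of muscle, was at -1.43 and 0.42. Sorbs3, the adhesion protein vinexin, was at -1.34 and -0.30. Ttll7 (1.22 and 0.26) and the membrane protein gene Tmem234 (0.95 and -0.03) went the other way. All 5 passed, with adjusted p between 5.07e-05 and 0.00018.

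Clock genes were part of this list. Nr1d2 (-1.60 in TA and -0.76 in SOL), Bhlhe40 (-1.77 and -0.47), Dbp (-1.66 and -0.51) and Hlf (-1.23 and -0.36) differed between the muscles, while the Bhlhe40 call was lost without mKO replicate A, and Nr1d1 (-1.64 and -0.64) missed the threshold (adjusted p = 0.0723). Cdkn1a was higher by 2.46 in TA and 1.98 in SOL, with an interval of the difference from 0.09 to 0.87 that did not pass after adjustment. Mrln was at 1.10 and 1.13, with an interval of -0.38 to 0.32. Mylk4 had the larger difference in SOL, -2.47 against -1.16, but this call was lost whichever of the 6 animals was left out.

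**Figure D5:**
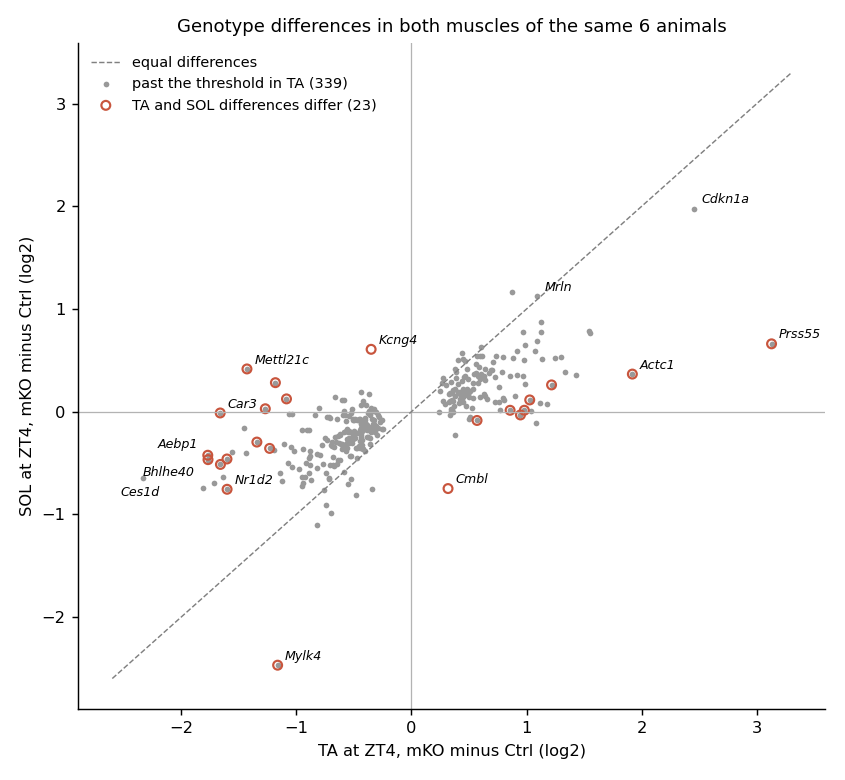
Genotype difference at ZT4 in TA (x axis) and in SOL (y axis), mKO minus Ctrl on the log2 scale, for the 339 genes past the threshold in TA (grey points) and the 23 genes whose differences differed between the muscles (red rings). The dashed line marks equal differences. Most grey points, selected by their TA difference, lie nearer to 0 on the SOL axis. Mylk4 lies far below 0 in SOL, and Cdkn1a and Mrln lie close to the dashed line.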

How the data were processed

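RNA extracted with Trizol was hybridised to whole-transcript arrays, 1 per muscle and animal. The deposited values are log2 signals that the authors made with RMA, per the submitters' processing notes. Its version, and whether all arrays were normalised in 1 run, are not given in the sources used here, and array medians ran from 6.67 to 6.84. No value was changed before the main tests. The table holds 21225 probe sets, of which 20239 have 1 gene symbol, 0 have several and 986 are unlisted. Groups come from the sample titles.

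The 36 TA arrays were fitted with limma 3.58.1 in R 4.3.3 (lmFit, eBayes), with 1 term for each genotype and time. Contrasts were mKO minus Ctrl at ZT4, and this against the mean of the other 5 times. SOL was fitted likewise, and the muscles were compared on differences TA minus SOL within animals. The Benjamini-Hochberg adjustment ran over 20239 genes, with a threshold of 0.05. The script was tested on simulated data. All 6 animals of ZT4 carry numbers of 1 series (BM3). At ZT20 the series differed between the genotypes, and at ZT16 it did so in part. Precision is limited by the number of arrays.

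The members, the 21 pathway and 11 marker lists (432 members, 401 measured) and the tests were chosen with earlier results of these data known. The text names all clock and output genes, the 10 largest changes per direction without overlap, the 8 smallest p of each other contrast and up to 2 genes per list and direction. Model names (10 of 339) are counted only. Other genes named were chosen after their values were seen. Alternatives left out each array, or changed the scaling, the filter, the weights, the block and the arrays fitted. Promoters of GRCm38.p6 served for motifs, and no coordinate was taken for probe sets.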

Additional observations from a re-analysis of the deposited data

Results flagged for a closer look

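The ZT4 difference of Nr1d1 in TA exceeded the mean of the other times by -0.77 (limma, adjusted p = 0.0033). This call was lost without Ctrl replicate A or without Ctrl replicate B. Genotype differences that differed between TA and SOL, given as TA minus SOL on the log2 scale, came from 23 genes. The TA decrease was the larger for Mettl21c (-1.85), Car3 (-1.65), Npr3 (-1.46), Aebp1 (-1.35), Bhlhe40 (-1.30), Slc2a3 (-1.30), Mical2 (-1.21), Dbp (-1.15), Nkain1 (-1.14), Sorbs3 (-1.05), Hlf (-0.87) and Nr1d2 (-0.85). Slc2a3 had SOL means of 6.15 in Ctrl and 6.18 in mKO, already at its TA mKO mean of 6.15. The TA increase was the larger for Prss55 (2.47), Actc1 (1.55), Tmem234 (0.98), Peg3 (0.97), Ttll7 (0.96), Cpne2 (0.91), Ccdc122 (0.84) and Kcnma1 (0.66). For the other 3 genes the SOL difference was the larger in size. Mylk4 (1.31) fell by 2.47 in SOL and by 1.16 in TA, Cmbl (1.07) was at -0.75 in SOL and 0.32 in TA, and Kcng4 (-0.96) was at 0.61 in SOL and -0.35 in TA. Leaving out 1 animal ended 9 of the 23 calls, those of Actc1, Bhlhe40, Ccdc122, Cmbl, Cpne2, Kcng4, Kcnma1, Mylk4 and Peg3. Bhlhe40 lost its call without mKO replicate A.

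Outside the named genes, 13 of the 986 probe sets without a gene name passed the threshold of the TA difference at ZT4, with 6 higher and 7 lower in mKO.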

How the results depend on the processing

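The count of 339 genes was 216 to 260 when 1 array was left out, 188 when only the 6 arrays of ZT4 were fitted and 566 with array weights. It was 326 with the replicate letter as a replicate block, against 339, and 75 against 89 in SOL. With the block, 273 of the 339 calls were kept in TA and 67 of the 89 in SOL. With only the 6 arrays of ZT4, 170 of the 339 were kept in TA. Deviations of same-lettered TA arrays correlated with r of 0.32, 0.050 and 0.15 at ZT4 and of -0.14 to 0.30 at the other times. Not every pair exceeded 0.1, so the letters were not taken as pairs. Among the genes named in the text, the block ended the calls of Adig, Ankrd2, Atf3, Cirbp, Cry1, Gpam and Igfbp5. For ZT4 against the other times, the count of 1 gene became 0 to 3 without 1 array (limma, 520 genes at an unadjusted p under 0.05 in the full fit), 5 with array weights or without ZT0, 3 without ZT20, 3 with quantile normalization and 2 over the brighter genes. For TA against SOL, 23 became 16 to 18 without 1 animal, 69 with array weights and 37 with quantile normalization or over the brighter genes. For SOL, 89 became 35 to 81 without 1 array, 211 with array weights and 31 with only the ZT4 arrays. The share of higher genes was 38.3%, and 46.0% with quantile normalization. Of 57 genes named by the rule and past the threshold of the TA difference, 37 passed in all alternatives run, 16 in number, or 15 for Slc2a3, which the filter on level removed, and 0 changed sign. Of 15 more called genes named outside the rule, 12 passed in all that were run. Tns1 was lost whichever array was left out. Akt1, Map1lc3a and Slc16a1 were lost only when the 6 arrays of ZT4 were fitted alone. The cause of these changes was not tested.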

Other observations

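Among the 62 genes called in both muscles were several that rose in TA and in SOL. Fgf11, a gene of the fibroblast growth factor family, was higher by 1.13 in TA and 0.87 in SOL. Olfm1, which encodes a secreted olfactomedin, was higher by 1.12 and 0.78, Mfsd4a, a membrane carrier gene, by 1.09 and 0.68, and Pla2g7, the gene of a secreted phospholipase, by 0.97 and 0.77. All 4 passed in each muscle, and none of the 4 differed between the muscles past the threshold. They were chosen after their values were seen.

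Genes were also counted along the chromosomes around Myl1, the gene whose MLC1f promoter drives the Cre, and around Arntl, with windows chosen after the data were seen. Of the 50 tested genes nearest to Myl1 on chromosome 1, 4 (8%) passed at ZT4, against 1.67% of all genes. Lancl1 (-0.60), Mreg (-0.88) and Igfbp5 (-0.73) were lower and Tns1 (0.26) was higher, a call lost whichever array was left out, and Myl1 itself was at -0.13 (adjusted p = 0.812). Of the 50 nearest to Arntl on chromosome 7, 2 (4%) passed, Wee1 (-0.57) and Mical2 (-1.09).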
